A study of Homo sapiens with 30 samples.

Results

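The 10 genes described here encode regulators of the integrated stress response: ATF4, ATF3, ATF5, DDIT3, CEBPB, CEBPG, TRIB3, NUPR1, PPP1R15A and SESN2. They were chosen by name as known members of that response, not by a threshold on their values, but with earlier results of these data known. Their counts beside the shares of all genes are therefore descriptions only. They are 10 of the 60675 genes in the table. All 10 passed the filter on low counts, with 50 to 19615 counts per gene and library. They were measured by RNA sequencing in SW1783, a human astrocytoma cell line, 24 h after adding 70% ethanol extracts of herbal formulas, in 30 libraries.

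Each extract was given at 500, 100 or 20 µg/mL, as the sample labels state. The design text sets the dose that inhibits growth by 20% as the top dose for extracts in which it lies under 500 µg/mL, so a label of 500 µg/mL may stand for a lower dose, and the dose behind it is uncertain in every comparison below. There were 3 vehicle libraries. Each dose was measured in 3 libraries for Bojungikgi-tang and for Sayeok-tang, in 2 for Banhasasim-tang (numbered 2 and 3) and in 1 for Yijung-tang. The vehicle is labelled 0.1% DMSO, while the design text gives 2%, so its strength is uncertain. The labels name separate sets for vehicle, for Bojungikgi-tang with Sayeok-tang, and for Banhasasim-tang with Yijung-tang. Against vehicle, treatment cannot be told apart from label set, nor can it between Banhasasim-tang and the formulas of the other set, while comparisons between doses of 1 formula stay within a set. No label says that replicates were separate cultures, so the spread that p-values measure is between samples and may be technical. SW1783 is 1 cell line, and water extracts and positive control compounds were not analysed here.

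The integrated stress response begins when a kinase that senses unfolded protein, amino acid shortage, heme shortage, viral RNA or mitochondrial stress phosphorylates the initiation factor eIF2. General translation then slows while the mRNA of ATF4 is translated more, and ATF4 protein switches on genes for amino acid supply, tRNA charging and redox balance. The same programme induces ATF3 and DDIT3 as further transcription factors and TRIB3 and PPP1R15A as brakes, so the mRNAs of its targets are commonly read as its output. RNA abundance does not measure eIF2 phosphorylation or ATF4 translation.

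Promoter sequences are shown for the 3 regulators whose window held a composite C/EBP-ATF element, at which ATF4 can bind with a C/EBP partner, or a CRE, a site of ATF and CREB factors. Windows of 250 bases before to 50 after each annotated start (RefSeq, GRCh38.p14) were searched on both strands, and 9 of the 10 genes matched the table. The bases before the start are printed 5′ to 3′ on the plus strand, on which all 3 genes lie, with the motif in capitals. They lie at chr1:212565157-212565406 for ATF3, chr19:33373863-33374112 for CEBPG and chr19:48872171-48872420 for PPP1R15A.
ATF3: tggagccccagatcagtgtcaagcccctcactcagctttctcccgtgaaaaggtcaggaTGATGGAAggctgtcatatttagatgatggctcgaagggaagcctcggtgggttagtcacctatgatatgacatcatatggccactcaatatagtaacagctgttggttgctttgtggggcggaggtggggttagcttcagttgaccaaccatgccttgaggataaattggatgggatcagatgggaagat
CEBPG: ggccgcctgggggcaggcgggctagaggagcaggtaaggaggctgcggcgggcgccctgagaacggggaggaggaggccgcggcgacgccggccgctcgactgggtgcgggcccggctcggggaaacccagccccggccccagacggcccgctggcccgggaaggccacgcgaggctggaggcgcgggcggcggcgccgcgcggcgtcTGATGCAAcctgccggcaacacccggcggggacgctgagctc
PPP1R15A: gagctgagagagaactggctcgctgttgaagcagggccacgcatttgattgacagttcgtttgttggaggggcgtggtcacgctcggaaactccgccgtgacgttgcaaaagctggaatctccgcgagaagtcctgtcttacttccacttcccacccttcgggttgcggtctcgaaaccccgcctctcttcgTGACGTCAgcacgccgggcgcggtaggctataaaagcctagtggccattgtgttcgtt
The composite element TGATGNAA stood at bases -191 to -184 from an annotated start of ATF3, as TGATGGAA, and at -42 to -35 of CEBPG, as TGATGCAA. Each of these genes has another annotated start, whose window held no such element. The element was found in 2 of the 9 genes and in 4.46% of the 27305 genes with a window. By window it was in 2 of 18 and in 3.62% of 35116. The 9 genes thus had more windows per gene than all genes, which holds for the shares of the other motifs too. The CRE TGACGTCA stood at -58 to -51 of PPP1R15A, 1 of the 9 genes, and in 2.25% of all genes. The AP-1 site TGANTCA was found in ATF5 and DDIT3 and in 9.37% of all genes. The antioxidant element TGACNNNGC was found in CEBPB, TRIB3 and PPP1R15A and in 16.1% of all genes. The endoplasmic reticulum stress element (ERSE) was in 0 of the 9 genes and in 0.0916% of all genes. These are matches of letters in short windows only, and sites outside them were not searched.

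Depth was 28.01 to 59.9 M counts per library. Levels below are CPM, that is, counts scaled to a common library total after that total was multiplied by a TMM factor of 0.913 to 1.047. Of 12 astrocyte markers, 9 passed the filter and 1 (AQP4) was at 0 in vehicle, where GFAP stood at 0.0816 and S100B at 0.211 CPM, against 243 for GJA1 and 4280 for VIM. The summed level of the astrocyte list lay between 4490 and 4870 CPM in vehicle and between 3640 and 5400 under the extracts. Summed neuron markers stood at 177 to 183 and 97.1 to 185 CPM, oligodendrocyte markers at 7.34 to 7.64 and 5.94 to 11.2 with MOG at 0, microglia markers at 17.5 to 18 and 4.78 to 18.4 with AIF1 at 0, and epithelial markers at 853 to 879 and 579 to 1010. The astrocyte sum is mostly VIM and hides the other members. From 20 to 500 µg/mL of Banhasasim-tang 6 of the 9 tested astrocyte markers fell and 0 rose, with a median log2 change of -0.48. Among them were SLC1A3, from 29.8 to 7.93 CPM, GJA1, from 214 to 153, and NES, from 10.1 to 4.36. Of 3 microglia markers 2 fell, CSF1R from 4.15 to 1.59 CPM and PTPRC from 11.8 to 3.16. Under Sayeok-tang and Bojungikgi-tang 2 astrocyte markers fell in each, and 2 and 1 of the 3 microglia markers. Over all genes 43.7%, 20.5% and 15.5% were called, in either direction, under Banhasasim-tang, Sayeok-tang and Bojungikgi-tang. The part of these marker changes in the changes of the regulators was not tested. In bulk RNA, fewer cells expressing a gene and less of its RNA per cell cannot be told apart.

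Of the 10 regulators 9 rose with dose under Banhasasim-tang and under Sayeok-tang, and 5 rose under Bojungikgi-tang. ATF3, TRIB3 and DDIT3 moved most under Banhasasim-tang, with mean CPM 14.6, 11.2 and 9.22 times higher at 500 than at 20 µg/mL. Under Sayeok-tang TRIB3, NUPR1 and DDIT3 led, at 3.31, 2.99 and 2.47 times, and under Bojungikgi-tang NUPR1 and TRIB3, at 1.64 and 1.43 times. Over all genes tested between 500 and 20 µg/mL, 43.7% were called under Banhasasim-tang, 20.5% under Sayeok-tang and 15.5% under Bojungikgi-tang (edgeR's quasi-likelihood test, Benjamini-Hochberg adjusted p under 0.05). Called as higher alone were 22.3%, 9.89% and 6.64%. The median log2 fold change of the 10 genes was 2.01, 0.88 and 0.29, while the median of all genes lay between 0 and 0.02 in these comparisons.

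**Figure D1:**
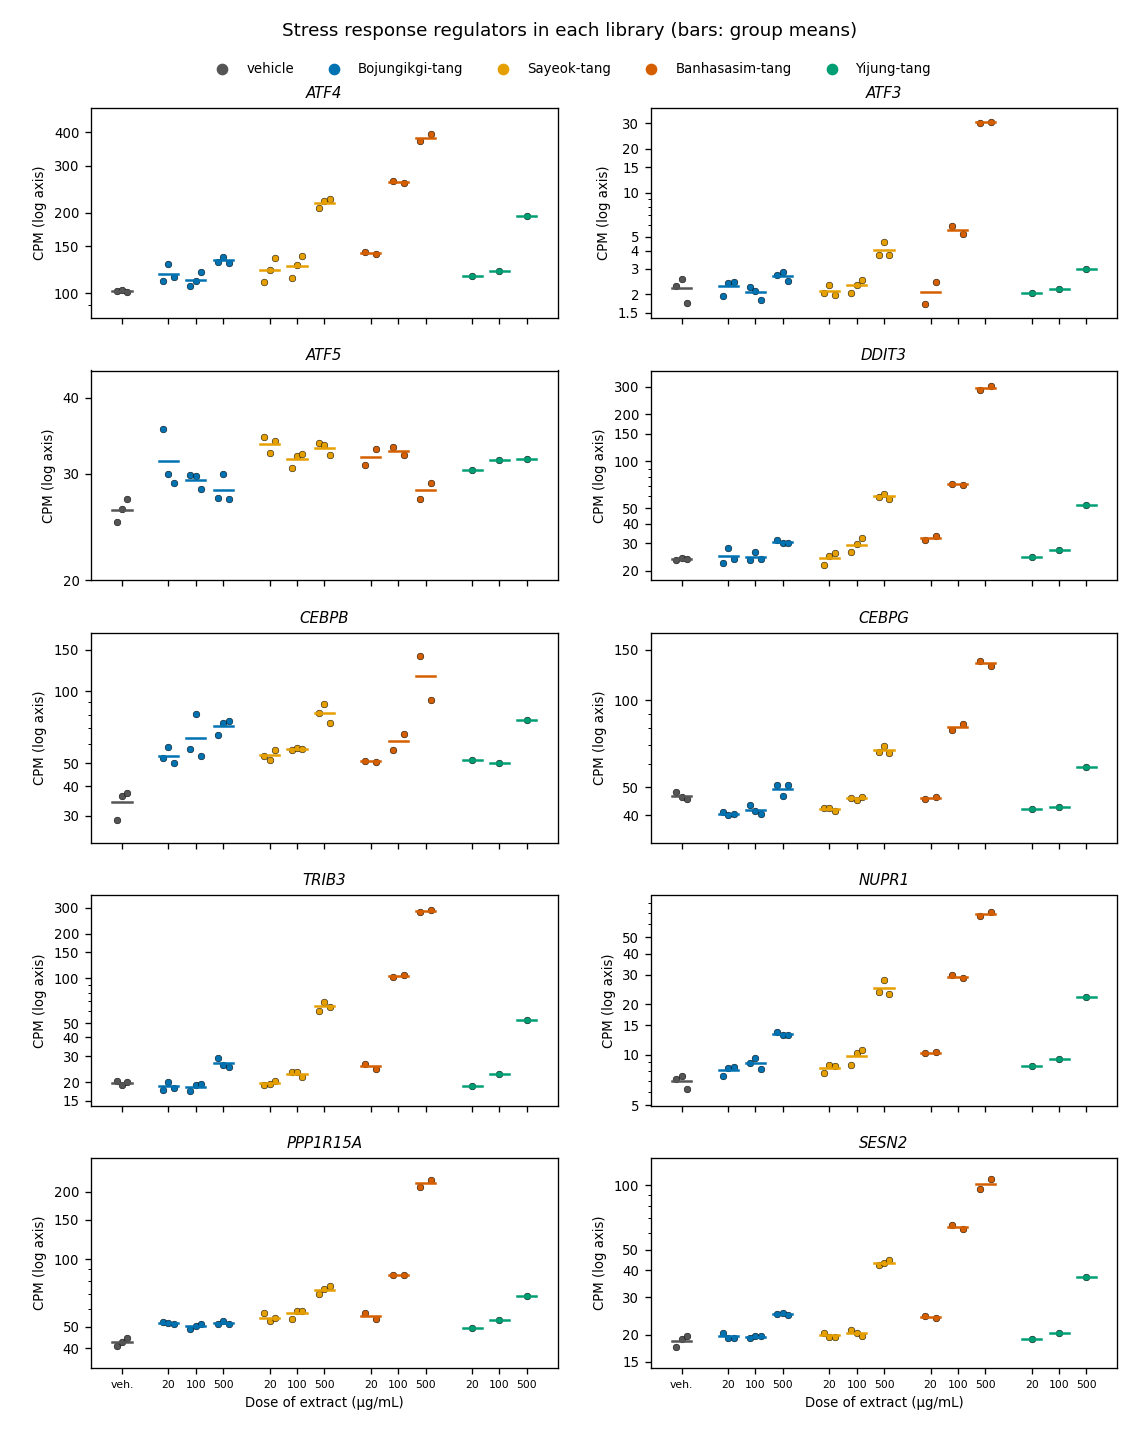
Levels of the 10 regulators (CPM, log axes) in each of the 30 libraries, by formula and dose, with points for libraries and horizontal bars for group means. Under Banhasasim-tang TRIB3 stood at 26.7 and 24.5 CPM at 20 µg/mL, 102 and 106 at 100 µg/mL and 282 and 290 at 500 µg/mL. It lay above all vehicle libraries at each dose, where 49.8%, 54.8% and 67.1% of all genes did not overlap with vehicle.

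ATF4 (ENSG00000128272), the transcription factor at the centre of the response, lies on the plus strand of chromosome 22 from 39519695 to 39522685 (GENCODE v29, GRCh38). Its vehicle libraries held 102, 103 and 101 CPM. At the top dose it stood at 131, 137 and 130 CPM under Bojungikgi-tang, 208, 222 and 225 under Sayeok-tang and 370 and 394 under Banhasasim-tang. The 3 formulas did not overlap with each other or with vehicle at that dose. Of all genes, 51.1%, 50.7% and 67.1% did not overlap with vehicle under Bojungikgi-tang, Sayeok-tang and Banhasasim-tang, in either direction. Between formulas the shares were 32.8% (Sayeok-tang and Bojungikgi-tang), 66.7% (Banhasasim-tang and Bojungikgi-tang) and 59.9% (Banhasasim-tang and Sayeok-tang). At 20 µg/mL ATF4 already stood at 142 and 140 CPM under Banhasasim-tang, and at 110, 122 and 135 under Sayeok-tang and 111, 129 and 115 under Bojungikgi-tang. From 20 to 500 µg/mL it rose by 1.44 ± 0.08 (log2, SE, n = 2 and 2) under Banhasasim-tang, with an edgeR adjusted p of 4.37e-13. It rose by 0.84 ± 0.07 under Sayeok-tang (n = 3 and 3, edgeR adjusted p = 1.14e-09). Under Bojungikgi-tang the difference was 0.16 ± 0.07 and did not pass the test (edgeR adjusted p = 0.118, 95% interval of the log2 change from 0.02 to 0.3). It passed with scaling by library size alone (adjusted p = 0.0232), with no filter (0.0151), with a replicate block (0.0342) and without replicate 2 at 20 µg/mL (0.0357).

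ATF3 (ENSG00000162772), a stress-induced bZIP factor that represses or activates by its partner, had the lowest CPM of the 10 genes in vehicle and lies on chromosome 1 from 212565334 to 212620777. It stood at 2.3, 2.55 and 1.74 CPM in vehicle and at 1.72 and 2.44 under Banhasasim-tang at 20 µg/mL, ranges that overlap. It then reached 5.94 and 5.21 CPM at 100 µg/mL and 30.3 and 30.6 at 500 µg/mL, above every other library of the study. Under Sayeok-tang it stood at 2.03, 2.33 and 1.98 CPM at 20 µg/mL and 3.75, 4.6 and 3.72 at 500 µg/mL. ATF3 rose by 3.89 ± 0.14 (log2, SE) under Banhasasim-tang and 0.92 ± 0.13 under Sayeok-tang from 20 to 500 µg/mL, with edgeR adjusted p of 1.93e-18 and 3.67e-06. Under Bojungikgi-tang it stood at 2.72, 2.83 and 2.48 CPM at 500 µg/mL, above the 1.96 to 2.45 at 20 µg/mL, but the log2 difference of 0.24 ± 0.13 did not pass the test (edgeR adjusted p = 0.251).

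DDIT3 (ENSG00000175197), also called CHOP, a C/EBP family factor linked to cell death after prolonged stress, lies on the minus strand of chromosome 12 from 57516588 to 57521737. Its vehicle libraries held 23.4, 24 and 23.9 CPM. Under Banhasasim-tang it went from 31.4 and 33.1 CPM at 20 µg/mL to 71.7 and 71.1 at 100 µg/mL and 289 and 306 at 500 µg/mL. Doses did not overlap, nor did they for 51.9% of all genes from 20 to 100 µg/mL and 64.7% from 100 to 500 µg/mL. At 500 µg/mL Sayeok-tang gave 59.5, 62 and 57.5 CPM and Bojungikgi-tang 31.4, 30.1 and 30.1. The log2 rise from 20 to 500 µg/mL was 3.21 ± 0.09, 1.31 ± 0.07 and 0.30 ± 0.07 (SE) under Banhasasim-tang, Sayeok-tang and Bojungikgi-tang, with edgeR adjusted p of 6.19e-20, 4.31e-13 and 0.00471. DDIT3 overlaps MARS1 and MBD6 on the other strand. The kit marks strand, but the sources used here do not state the strand setting of the counting, so reads of the pair may not be fully separated. MARS1, a tRNA synthetase gene at 136 CPM in vehicle, rose by 0.72 ± 0.04 (log2, SE) between the same Banhasasim-tang doses (edgeR adjusted p = 4.43e-14).

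CEBPG (ENSG00000153879), a small C/EBP protein that pairs with ATF4, lies on chromosome 19 from 33373330 to 33382686. It was called below vehicle at 20 µg/mL under Bojungikgi-tang and Sayeok-tang. Vehicle libraries held 48.2, 46.3 and 45.4 CPM, against 41, 40 and 40.5 under Bojungikgi-tang and 42.2, 42.2 and 41.2 under Sayeok-tang at 20 µg/mL. The top dose gave 66.1, 69.3 and 65.9 CPM under Sayeok-tang and 137 and 132 under Banhasasim-tang, both above vehicle without overlap. Of all genes 50.7% and 67.1% did not overlap with vehicle there. Between the lowest and the highest dose CEBPG rose by 1.55 ± 0.05, 0.68 ± 0.04 and 0.28 ± 0.04 (log2, SE) under Banhasasim-tang, Sayeok-tang and Bojungikgi-tang, with edgeR adjusted p of 6.91e-20, 3.41e-13 and 7.6e-06.

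CEBPB (ENSG00000172216), a C/EBP factor of inflammation and differentiation that also pairs with ATF4, lies on chromosome 20 from 50190734 to 50192689. Its replicates stood apart at the highest Banhasasim-tang dose. Vehicle libraries held 28.8, 36.4 and 37.3 CPM, and the Banhasasim-tang libraries at 500 µg/mL held 141 (replicate 2) and 91.7 (replicate 3). At 20 µg/mL the libraries of all 3 replicated formulas lay between 49.9 and 58.3 CPM, above vehicle. Of all genes 36.8% (Bojungikgi-tang), 41.8% (Sayeok-tang) and 49.8% (Banhasasim-tang) did not overlap with vehicle at that dose. CEBPB rose by 1.19 ± 0.18 (log2, SE) under Banhasasim-tang and 0.59 ± 0.15 under Sayeok-tang from 20 to 500 µg/mL, with edgeR adjusted p of 2.87e-05 and 0.00765. Fitted on the Banhasasim-tang doses compared alone, the first was 1.18 with an edgeR adjusted p of 0.0952. Under Bojungikgi-tang the difference was 0.42 ± 0.15 and missed the threshold (edgeR adjusted p = 0.0685), but it passed in 5 other settings, among them DESeq2 (adjusted p = 0.0327).

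ATF5 (ENSG00000169136), a bZIP factor of the mitochondrial stress response that is controlled through its translation like ATF4, lies on chromosome 19 from 49928702 to 49933935. It was the regulator that did not rise with dose in any formula. Its vehicle libraries held 25, 26.2 and 27.2 CPM, and at 500 µg/mL it stood at 27.4, 30 and 27.3 under Bojungikgi-tang, 33.7, 33.4 and 32.2 under Sayeok-tang and 27.3 and 29 under Banhasasim-tang. From 20 to 500 µg/mL it fell by 0.18 on the log2 scale under Banhasasim-tang (SE 0.07, edgeR adjusted p = 0.0434). That call was lost without replicate 2 at 500 µg/mL (adjusted p = 0.241) and without either 20 µg/mL library (adjusted p = 0.0504 and 0.234). Under Sayeok-tang the difference was -0.02 ± 0.06 (edgeR adjusted p = 0.844) and under Bojungikgi-tang -0.16 ± 0.06 (edgeR adjusted p = 0.0577). The Bojungikgi-tang difference passed without replicate 2 at 500 µg/mL (edgeR adjusted p = 0.0333) and without replicate 2 or 3 at 20 µg/mL (0.0316 and 0.0112). ATF5 overlaps NUP62 and IL4I1 on the other strand, and reads of these genes may not be fully separated either. NUP62, at 90.4 CPM in vehicle, fell by 0.25 on the log2 scale (SE 0.04, edgeR adjusted p = 4.27e-05) from 20 to 500 µg/mL of Banhasasim-tang.

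TRIB3 (ENSG00000101255), a pseudokinase that ATF4 induces and that holds ATF4 and DDIT3 back, lies on chromosome 20 from 362835 to 397559. It stood at 20.4, 19.1 and 20 CPM in vehicle. Bojungikgi-tang gave 17.6, 20.2 and 18.4 CPM at 20 µg/mL and 29.1, 25.9 and 25.5 at 500 µg/mL. Sayeok-tang gave 19.2, 19.4 and 20.3 CPM at 20 µg/mL and 60.6, 69.4 and 64.6 at 500 µg/mL. Within each of these formulas the 2 doses did not overlap, nor did they for 29.6% (Bojungikgi-tang) and 35.6% (Sayeok-tang) of all genes. TRIB3 rose by 3.48 ± 0.07 (log2, SE) under Banhasasim-tang, 1.73 ± 0.06 under Sayeok-tang and 0.52 ± 0.06 under Bojungikgi-tang, with edgeR adjusted p of 1.35e-23, 4.07e-18 and 4.54e-07.

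NUPR1 (ENSG00000176046), a small stress-induced nuclear protein, lies on the minus strand of chromosome 16 from 28532708 to 28539174. It was low in vehicle, at 7.17, 7.43 and 6.21 CPM. The top dose brought it to 13.6, 13 and 13 CPM under Bojungikgi-tang, 23.5, 27.9 and 23.1 under Sayeok-tang and 67.2 and 71 under Banhasasim-tang. All these libraries lay above those at 20 µg/mL, which held 7.43 to 10.3 CPM. Of all genes 29.6%, 35.6% and 71.2% did not overlap between these doses under Bojungikgi-tang, Sayeok-tang and Banhasasim-tang. NUPR1 rose by 2.75 ± 0.09, 1.58 ± 0.08 and 0.71 ± 0.08 (log2, SE) from 20 to 500 µg/mL under Banhasasim-tang, Sayeok-tang and Bojungikgi-tang, with edgeR adjusted p of 3.93e-19, 1.27e-14 and 3e-07.

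PPP1R15A (ENSG00000087074), also called GADD34, carries protein phosphatase 1 to eIF2 and so ends the block on translation. It lies on chromosome 19 from 48872392 to 48876057. Vehicle libraries held 40.8, 42.6 and 44.4 CPM, and Banhasasim-tang gave 57.6 and 54.1 at 20 µg/mL, 85.1 and 84.7 at 100 µg/mL and 209 and 226 at 500 µg/mL. Under Bojungikgi-tang it stood at 52.2, 51.8 and 51.5 CPM at 20 µg/mL and 51.3, 52.8 and 51.4 at 500 µg/mL, which overlap. The log2 rise from 20 to 500 µg/mL was 1.96 ± 0.05 (SE) under Banhasasim-tang and 0.41 ± 0.04 under Sayeok-tang, with edgeR adjusted p of 9.65e-21 and 4.71e-08. Under Bojungikgi-tang the difference was 0 ± 0.04, with a 95% interval from -0.09 to 0.09 (edgeR adjusted p = 1).

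SESN2 (ENSG00000130766), a sestrin that restrains the growth kinase complex mTORC1 when leucine is short, lies on chromosome 1 from 28259527 to 28282491. It held 17.5, 19.1 and 19.8 CPM in vehicle. At the top dose it held 25, 25.3 and 24.7 CPM under Bojungikgi-tang, 42.3, 43.4 and 44.6 under Sayeok-tang and 95.8 and 107 under Banhasasim-tang. These groups overlapped neither with vehicle nor with each other. Shares of all genes without overlap were 51.1%, 50.7% and 67.1% with vehicle, in this order, and 32.8 to 66.7% between formulas. Between the lowest and the highest dose it rose by 2.06 ± 0.06, 1.12 ± 0.05 and 0.34 ± 0.05 (log2, SE) under Banhasasim-tang, Sayeok-tang and Bojungikgi-tang, with edgeR adjusted p of 9.65e-21, 4.92e-16 and 7.96e-06.

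**Figure D2:**
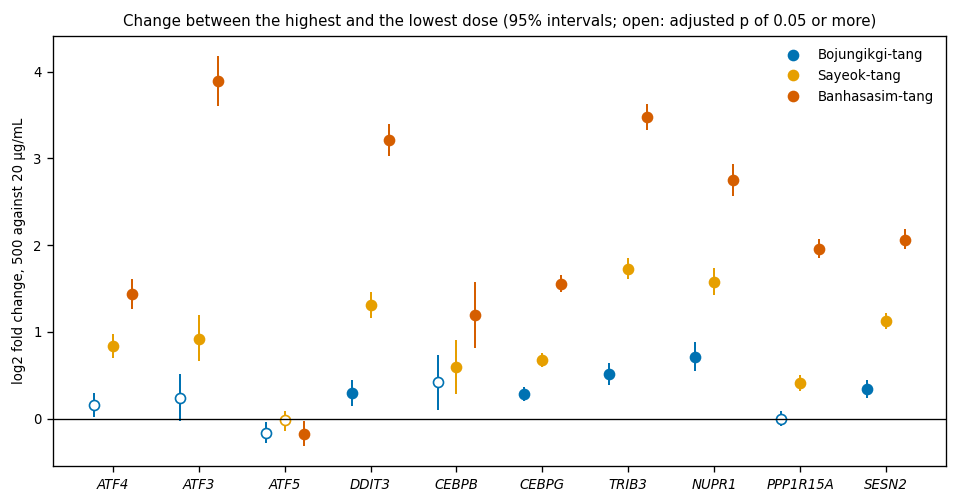
Log2 fold change of each regulator from 20 to 500 µg/mL under 3 formulas, with 95% intervals. Filled points passed the adjusted p threshold of 0.05 and open points did not. Banhasasim-tang lies highest for 9 genes, and ATF5 lies at or below 0 in all 3.

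Levels were also set against length, as CPM per kilobase of the median length of a gene's coding transcripts. By this measure vehicle cells held most ATF4 (53.4), then ATF5 (31.5), DDIT3 (25.7) and PPP1R15A (20.8), and least ATF3 (2.85) and NUPR1 (2.3). Under Banhasasim-tang at 500 µg/mL the order of the levels began with DDIT3 (322), TRIB3 (220) and ATF4 (200). ATF5, second in vehicle by this measure, stood at 34 CPM per kilobase there, between ATF3 at 39.6 and CEBPG at 33.8. The median lengths were 828 bases for ATF5, 769 for ATF3 and 1301 for TRIB3. All exons together hold 2954, 4040 and 3434 bases in these genes. The order of the genes depends on which length is used and was not computed with other lengths.

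The size of the dose effect differed between formulas, which was tested as the difference of the log2 changes from 20 to 500 µg/mL. Banhasasim-tang exceeded Bojungikgi-tang in 9 of 10 regulators, where 31.8% of all genes were called, and exceeded Sayeok-tang in 8, where 24.4% were called. Sayeok-tang exceeded Bojungikgi-tang in 8, where 4.49% were called, with TRIB3 first at 1.21 more and DDIT3 next at 1.01 more. Against Sayeok-tang, Banhasasim-tang raised ATF3 by 2.97 more, DDIT3 by 1.90 more and TRIB3 by 1.76 more on the log2 scale, but ATF4 by 0.60 more. For CEBPB that difference was 0.60 and did not pass (edgeR adjusted p = 0.0737). The CEBPB call against Bojungikgi-tang (0.78) was lost without replicate 2 at 500 µg/mL (0.44, adjusted p = 0.154) or without replicate 3 at 20 µg/mL of Banhasasim-tang. The ATF3 call between Sayeok-tang and Bojungikgi-tang (0.69) was lost without any of 7 libraries (0.58 to 0.7, adjusted p from 0.0533 to 0.101). The median differences over the 10 genes were 1.84, 1.05 and 0.69 in the order of the comparisons above. The Banhasasim-tang doses come from another label set, but each dose effect was measured within its set.

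At 500 µg/mL itself the levels ran in the order Bojungikgi-tang, Sayeok-tang, Banhasasim-tang for 9 regulators, with neighbours apart by test in 8 of them. Of the 10, 9 were higher under Sayeok-tang than Bojungikgi-tang (12.7% of all genes were called). For CEBPB the log2 difference was 0.18, with a 95% interval from -0.13 to 0.49 (edgeR adjusted p = 0.525). Between Banhasasim-tang and Sayeok-tang 9 were higher and ATF5 was lower under the former (41.3% of all genes), with ATF3 2.92 ± 0.11 (log2, SE) and DDIT3 2.32 ± 0.07 higher. The CEBPB difference there was 0.52 (edgeR adjusted p = 0.0154). It did not pass with library size scaling (0.37, edgeR adjusted p = 0.0767), with the compared groups alone (0.51, 0.201) or without Sayeok-tang replicate 3 (0.45, 0.0595). Without Banhasasim-tang replicate 2 at 500 µg/mL it fell to 0.18, and the ATF5 call was lost (-0.19). Again 9 were higher under Banhasasim-tang than Bojungikgi-tang (47.5% of all genes), where the 95% interval of ATF5 ran from -0.13 to 0.13. Without the same Banhasasim-tang library the CEBPB difference from Bojungikgi-tang was 0.36. With the compared groups alone it was 0.68 and did not pass (edgeR adjusted p = 0.0997).

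Doses at which the regulators moved also differed. From 20 to 100 µg/mL 8 regulators rose under Banhasasim-tang, where 6.6% of all genes were called (3.64% as higher), and the 10 genes had a median log2 change of 1.01. Of the 10, 0 were called under Bojungikgi-tang, where 1.56% of all genes were, and 0 had an unadjusted edgeR p under 0.05. Under Sayeok-tang 0 were called as well, where 0.0306% of all genes were, and 4 had an unadjusted edgeR p under 0.05 (DDIT3, TRIB3, CEBPG and NUPR1, all higher). DESeq2 called 0 regulators in both comparisons. The Sayeok-tang values at 100 and 20 µg/mL differed by 0.29 ± 0.07 (log2, SE) for DDIT3 and 0.22 ± 0.06 for TRIB3, with edgeR adjusted p of 0.209 and 0.271. From 100 to 500 µg/mL, comparisons added after the data were seen, 6 regulators rose under Bojungikgi-tang, 9 under Sayeok-tang and 9 under Banhasasim-tang, where ATF5 fell. The shares of all genes called in these were 4.58%, 14.7% and 31.2%. Without single libraries, the Bojungikgi-tang calls of ATF4 (adjusted p = 0.0493) and DDIT3 and the Sayeok-tang call of CEBPB (adjusted p = 0.027) were lost. Fitted on the compared doses alone, the CEBPB rise under Banhasasim-tang was 0.91 and did not pass (edgeR adjusted p = 0.182). The ATF5 fall under Banhasasim-tang was lost without replicate 2 at 500 µg/mL (adjusted p = 0.173) and without replicate 2 or 3 at 100 µg/mL (adjusted p = 0.127 and 0.0541).

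Under Banhasasim-tang some regulators moved more in the lower dose step and others in the upper. SESN2 rose by 1.39 ± 0.06 (log2, SE) from 20 to 100 µg/mL and 0.67 ± 0.05 from 100 to 500 µg/mL, so 67.6% of its change was present at 100 µg/mL. For TRIB3 the steps were 2.03 ± 0.07 and 1.46 ± 0.07, and for ATF4 0.88 ± 0.08 and 0.55 ± 0.08. DDIT3 went the other way, with 1.15 ± 0.09 and then 2.06 ± 0.08, and so did ATF3, with 1.45 ± 0.15 and 2.45 ± 0.12. PPP1R15A, the eIF2 phosphatase subunit, had the smallest share of its change at 100 µg/mL among the genes with a called lower step, 30.8%. The difference between the steps, upper less lower, was tested as a comparison added after the data were seen. It was called in 5 of the 10 regulators, against 4.52% of all genes. The upper step was larger for DDIT3 (0.91 ± 0.15, edgeR adjusted p = 0.00022), PPP1R15A (0.75 ± 0.09, edgeR adjusted p = 5.46e-06) and ATF3 (1.00 ± 0.24, edgeR adjusted p = 0.0129). The lower step was larger for SESN2 (-0.73 ± 0.09, edgeR adjusted p = 1.02e-05) and TRIB3 (-0.57 ± 0.11, edgeR adjusted p = 0.0022). For ATF4 the difference was -0.33 ± 0.14 (edgeR adjusted p = 0.237). The ATF3 call was lost without either 100 µg/mL library or without replicate 3 at 20 µg/mL (adjusted p of 0.0547, 0.234 and 0.13), and the TRIB3 call without replicate 3 at 100 µg/mL (adjusted p = 0.0761).

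**Figure D3:**
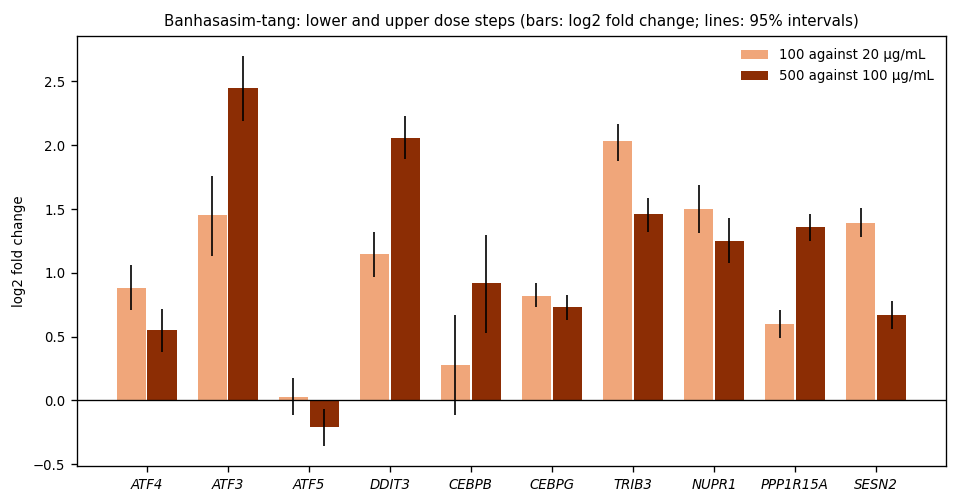
Banhasasim-tang, log2 fold change of each regulator in the step from 20 to 100 µg/mL (light bars) and from 100 to 500 µg/mL (dark bars), with 95% intervals as lines. Of the 5 genes whose steps differed by test, SESN2 and TRIB3 have the taller light bar and ATF3, DDIT3 and PPP1R15A the taller dark bar. ATF4, CEBPG and NUPR1 also have the taller light bar and CEBPB the taller dark bar, without passing that test.

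Against vehicle at 500 µg/mL, 9 of 10 regulators rose under Banhasasim-tang, 10 under Sayeok-tang and 7 under Bojungikgi-tang, where 51%, 38.3% and 34.6% of all genes were called. Their median log2 changes were 2.39, 1.16 and 0.37. Under Banhasasim-tang TRIB3 was 3.86 ± 0.06 (log2, SE) and ATF3 3.78 ± 0.13 above vehicle, with edgeR adjusted p of 5.85e-26 and 2.33e-19. Under Bojungikgi-tang CEBPB, at 65.7, 73.9 and 75.3 CPM, was 1.06 ± 0.16 above vehicle, followed by NUPR1 with 0.92 ± 0.09. At 100 µg/mL 10, 7 and 3 regulators rose under Banhasasim-tang, Sayeok-tang and Bojungikgi-tang, and CEBPG fell under the last, where 28.1%, 29.2% and 22.1% of all genes were called.

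At 20 µg/mL 8, 5 and 4 regulators were above vehicle, and CEBPG was below it under Sayeok-tang and Bojungikgi-tang, where 18.3%, 25.3% and 26.2% of all genes were called for Banhasasim-tang, Sayeok-tang and Bojungikgi-tang. ATF4, ATF5, CEBPB and PPP1R15A were called as higher under all 3, with CEBPB 0.57, 0.65 and 0.65 and ATF5 0.29, 0.36 and 0.27 above vehicle on the log2 scale. DDIT3 and TRIB3 were called under Banhasasim-tang, 0.44 ± 0.08 and 0.37 ± 0.07 (log2, SE) above vehicle. Under Sayeok-tang they differed from it by 0.02 and -0.01 and under Bojungikgi-tang by 0.06 and -0.08, and the formulas were not tested against each other at this dose. A difference common to all treated groups moved with other features of the libraries. The 1274 genes higher at 20 µg/mL in all 3 formulas had a median GC content of 59.9%, and the 1451 lower genes 42.6%, against 49.6% over all tested genes. The GC content of the regulators was 66.2% for CEBPB, 62.5% for ATF5, 62% for TRIB3, 59.5% for SESN2, 57.7% for PPP1R15A, 55.7% for NUPR1, 55.4% for ATF4, 50.9% for ATF3, 50.6% for DDIT3 and 41.9% for CEBPG. At 20 µg/mL TRIB3 and SESN2 were called as higher under Banhasasim-tang, where the mean CPM of each was 1.29 times that of vehicle. They were not called under Sayeok-tang (log2 -0.01 and 0.08) or Bojungikgi-tang (-0.08 and 0.07). The summed level of structural RNAs, a sign of how RNA was selected, lay between 4.92 and 17.9 CPM in vehicle and between 14.3 and 151 under the extracts. The part of these features and of the label set in the differences from vehicle was not tested. Single libraries decided some of these calls. Under Banhasasim-tang the CEBPB call was lost without vehicle replicate 1 (0.46, edgeR adjusted p = 0.125) or 2 (0.62, 0.0524). With 1 Banhasasim-tang library left, CEBPB was 0.55 or 0.58 and ATF5, without replicate 3, 0.25 above vehicle. The ATF4 call under Bojungikgi-tang was lost without any 1 of the 3 vehicle libraries (edgeR adjusted p from 0.0539 to 0.0674). It was also lost without replicate 2 at 20 µg/mL (0.15, 0.158), and that under Sayeok-tang without replicate 3 (0.18, 0.071). NUPR1 under Sayeok-tang, with an adjusted p of 0.0448, reached 0.207 without vehicle replicate 3.

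Yijung-tang had 1 library per dose, so its values have no replicate check and no test was made. At 500 µg/mL all 10 regulators lay above the range of the 3 vehicle libraries, as did 37.6% of all genes. Of the 10, 7 were past 1.5-fold above the vehicle mean, as were 9.03% of all genes (16.2% in either direction). NUPR1 was at 22 CPM, TRIB3 at 52.2, DDIT3 at 52.4 and ATF4 at 195. Their log2 CPM lay 1.67, 1.40, 1.14 and 0.93 above the vehicle mean. ATF3 at 2.98 CPM, ATF5 at 31.7 and CEBPG at 58.8 were not past 1.5-fold. Between 500 and 20 µg/mL 5 regulators were past that fold (ATF4, DDIT3, TRIB3, NUPR1 and SESN2), as were 12.7% of all genes in either direction. At 100 µg/mL 0 were past it against vehicle (10.5% of all genes), and at 20 µg/mL CEBPB alone, by 0.60 on the log2 scale (9.47%). Between 100 and 20 µg/mL 0 were past it (9.13% of all genes).

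**Figure D4:**
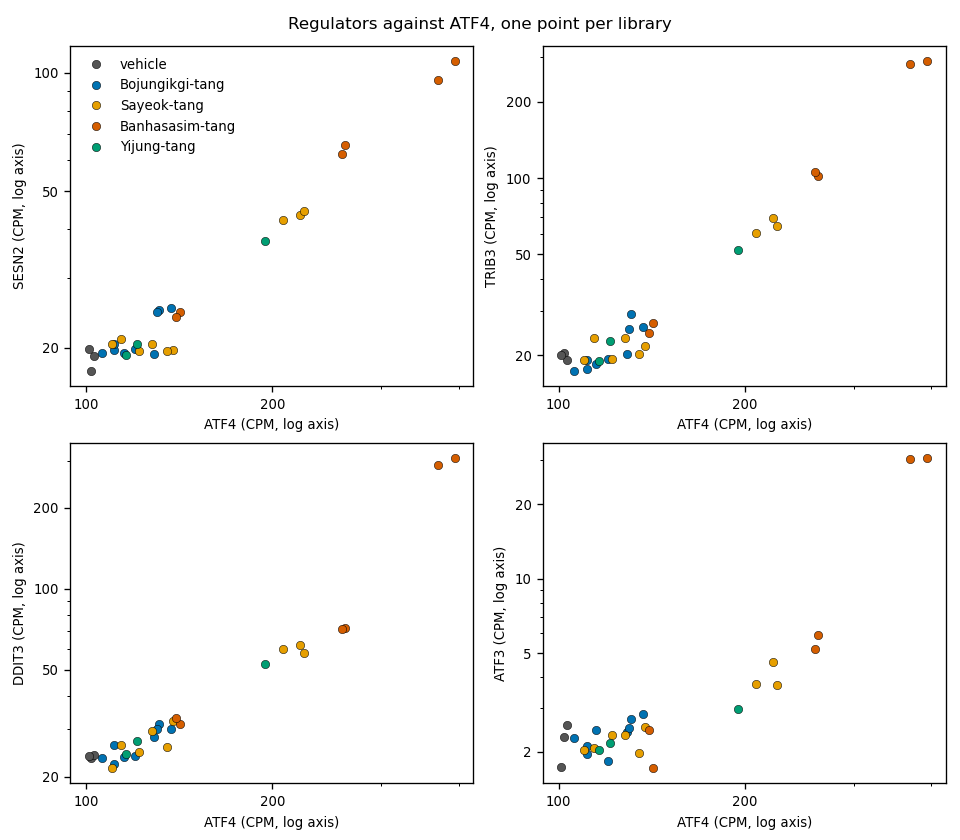
SESN2, TRIB3, DDIT3 and ATF3 against ATF4 (CPM, log axes), with 1 point for each of the 30 libraries, coloured by formula. At the highest ATF4 levels, 370 and 394 CPM, DDIT3 reached 289 and 306 CPM and ATF3 30.3 and 30.6.

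Over the 27 treated libraries, which share cell line, doses and label sets, log2 CPM of the regulators moved together, and the coefficients describe these libraries only. Pearson's r of TRIB3 was 0.99 with ATF4, CEBPG, NUPR1 and SESN2. PPP1R15A had an r of 0.98 with both ATF3 and DDIT3. CEBPB had 0.72 to 0.81 with the other rising regulators, and ATF5 had -0.06 to -0.35 with the rest. Among 13966 genes averaging 1 CPM or more, those most like ATF4 were SHMT2 (0.995), ADM2 (0.986), GARS1 (0.984), MARS1 (0.983) and YARS1 (0.983), of which the last 3 encode tRNA synthetases. Those most like TRIB3 were GARS1 (0.994), ARHGEF2 (0.992), YARS1 (0.992), LONP1 (0.992) and AARS1 (0.99). DDIT3 was followed most closely by HERPUD1 (0.997), a factor of degradation at the endoplasmic reticulum, RND3 (0.993), GTPBP2 (0.991), the chaperone gene HSPA5 (0.989) and KLF4 (0.987). The genes nearest to CEBPB were less like it, IRF2BP2 (0.912), MXI1 (0.905), SRXN1 (0.902), IDH1 (0.901) and AMN1 (0.896).

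The targets through which ATF4 acts, 33 tested genes of amino acid synthesis and import, tRNA charging and secreted stress signals, moved with the regulators. From 20 to 500 µg/mL 32 rose and 1 fell under Banhasasim-tang, 29 rose and 1 fell under Sayeok-tang, and 19 rose and 2 fell under Bojungikgi-tang, with median log2 changes of 1.3, 0.65 and 0.25. The shares of all genes called in these comparisons were 43.7%, 20.5% and 15.5%. Here and in the lists below, genes of small counts are named after their values were seen. Those that fell were ALDH18A1, a proline synthesis gene, by 0.11 on the log2 scale under Banhasasim-tang, STC2, by 0.27 under Sayeok-tang, and ALDH18A1 and VLDLR, by 0.13 and 0.18 under Bojungikgi-tang. With scaling by library size alone 29 rose and 0 fell under Sayeok-tang and 21 rose and 0 fell under Bojungikgi-tang, so these falls were not called there. GDF15, a secreted stress cytokine, went from 6.79 to 266 CPM under Banhasasim-tang, a log2 rise of 5.29 ± 0.08 (SE), and rose by 2.69 ± 0.07 and 1.48 ± 0.08 under Sayeok-tang and Bojungikgi-tang. Asparagine synthetase ASNS rose by 2.45 ± 0.07 from 61.6 to 336 CPM under Banhasasim-tang, and by 1.66 and 0.73 under the other two. Serine synthesis gene PSAT1 rose by 1.83, 1.40 and 0.51 and the cystathionine synthase gene CBS by 2.47, 1.69 and 0.71. The cystine transporter gene SLC7A11 rose by 1.02 under Bojungikgi-tang. From 20 to 100 µg/mL 30 of the 33 rose and 0 fell under Banhasasim-tang, with a median of 0.69, where 6.6% of all genes were called.

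The 22 genes of the eIF2 kinases and of the eIF2 switch changed in both directions. Of these 9 rose and 3 fell from 20 to 500 µg/mL under Banhasasim-tang, where 43.7% of all genes were called, with a median log2 change of 0.10, led by IMPACT, an inhibitor of the kinase GCN2, at 0.70 ± 0.06 (log2, SE). OMA1, the mitochondrial protease that signals to eIF2 kinases, rose by 0.63 and the eIF2 subunit gene EIF2S2 by 0.63, while the catalytic phosphatase genes PPP1CA and PPP1CC fell by 0.42 and 0.34 and EIF2B1 by 0.22 on the log2 scale. Under Sayeok-tang 5 rose and 2 fell, where 20.5% of all genes were called. OMA1, DNAJC3, EIF2AK3, EIF2S2 and PPP1R15B were 0.33, 0.24, 0.19, 0.24 and 0.17 higher and PPP1CC and PPP1CA fell. Under Bojungikgi-tang 0 rose and 5 fell, where 15.5% of all genes were called. The 5 were PPP1CC, EIF2S1, PPP1CA, EIF2B2 and EIF2B1, lower by 0.18 or less on the log2 scale. With scaling by library size alone 2 rose and 0 fell. The kinase genes are given outside the naming rule, after their values were seen. Under Banhasasim-tang they differed by 0.17 ± 0.06 (EIF2AK3, edgeR adjusted p = 0.0224), 0.12 ± 0.05 (EIF2AK4, 0.0804), 0.09 ± 0.08 (EIF2AK2, 0.379) and 0.06 ± 0.05 (EIF2AK1, 0.338).

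Targets of ATF6 and XBP1, the other branches of the unfolded protein response, rose too. All 18 tested rose under Banhasasim-tang from 20 to 500 µg/mL (median 0.76), 17 under Sayeok-tang (0.40) and 5 under Bojungikgi-tang (0.10), and 0 fell. In these comparisons 43.7%, 20.5% and 15.5% of all genes were called. The 5 under Bojungikgi-tang were HERPUD1, EDEM1, PDIA4, DNAJB9 and HYOU1, by 0.28, 0.21, 0.15, 0.20 and 0.14, and 10 rose with scaling by library size alone. The chaperone gene HSPA5, also called BiP, rose by 1.87 ± 0.06 (log2, SE), from 3840 to 14000 CPM, under Banhasasim-tang, and by 0.67 under Sayeok-tang. HERPUD1 rose by 2.14 ± 0.06, from 87.5 to 385 CPM, and by 0.91. DNAJB9, which holds the sensor IRE1 inactive, rose by 1.46 under Banhasasim-tang. Of 8 death genes linked to DDIT3, 5 rose and 0 fell under Banhasasim-tang, 3 and 0 under Sayeok-tang and 3 and 3 under Bojungikgi-tang, beside the same shares of all genes. The death receptor gene TNFRSF10B, which the ATF4 list also holds, rose by 1.85 ± 0.04 from 53.1 to 191 CPM under Banhasasim-tang. The killer gene BBC3 rose by 2.27 ± 0.26 but stayed low, at 2.3 CPM, while BCL2, which protects cells from death, rose by 0.80 and the death genes PMAIP1 and BCL2L11 by 0.97 and 0.61. Under Sayeok-tang TNFRSF10B, BBC3 and BCL2L11 rose by 0.33, 0.90 and 0.24. Under Bojungikgi-tang BCL2L11, TNFRSF10B and CASP4 rose by 0.52, 0.19 and 0.22, and BCL2, DAPK3 and PMAIP1 fell by 0.35, 0.23 and 0.21 on the log2 scale.

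For the 3 lists that follow, 43.7%, 20.5% and 15.5% of all genes were called under Banhasasim-tang, Sayeok-tang and Bojungikgi-tang from 20 to 500 µg/mL. Partners of SESN2 in mTORC1 control, 13 genes, gave 8 higher and 2 lower under Banhasasim-tang, 3 and 0 under Sayeok-tang and 1 and 1 under Bojungikgi-tang. With scaling by library size alone the last was 4 and 0 and that of Sayeok-tang 5 and 0. DDIT4, an inhibitor of mTORC1, rose in all 3, by 1.27, 0.92 and 0.57 on the log2 scale. The Rag GTPase gene RRAGD rose by 2.80 ± 0.24 under Banhasasim-tang, from 0.419 to 2.91 CPM, and by 1.37 under Sayeok-tang, where RRAGC rose by 0.46. DEPTOR and DEPDC5 fell by 0.47 and 0.27 on the log2 scale under Banhasasim-tang, and SEH1L by 0.13 under Bojungikgi-tang. Of 8 tested paralogs of the regulators, 4 rose and 2 fell under Banhasasim-tang. JDP2, the nearest relative of ATF3, rose by 1.01 ± 0.09 there and PPP1R15B, the constitutive paralog of PPP1R15A, by 0.33. TRIB1 and CEBPA rose by 0.49 and 0.90, while SESN3 fell by 0.52 and TRIB2 by 0.46 on the log2 scale. Under Bojungikgi-tang TRIB2 and SESN3 instead rose, by 0.24 and 0.42, and under Sayeok-tang JDP2, TRIB1 and PPP1R15B rose, by 0.60, 0.19 and 0.17. Among 26 other bZIP factors 16 rose and 4 fell under Banhasasim-tang (median 0.33), 6 and 3 under Sayeok-tang and 2 and 3 under Bojungikgi-tang, or 9 and 1 with scaling by library size alone. The small Maf genes MAFF and MAFG rose by 1.55 and 1.12 under Banhasasim-tang, where FOS, HLF, JUNB and FOSL2 fell by 1.18, 0.64, 0.59 and 0.57 on the log2 scale. FOSL1 fell by 0.57 under Bojungikgi-tang, with JUN and MAFF (0.17 and 0.24), while MAFG and TEF rose by 0.22 and 0.16. Under Sayeok-tang HLF, FOSL1 and FOSL2 fell by 0.51, 0.34 and 0.25. Some genes stand in more than 1 list (TNFRSF10B, DNAJC3, XBP1, PPP1R15B and DDIT4).

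**Figure D5:**
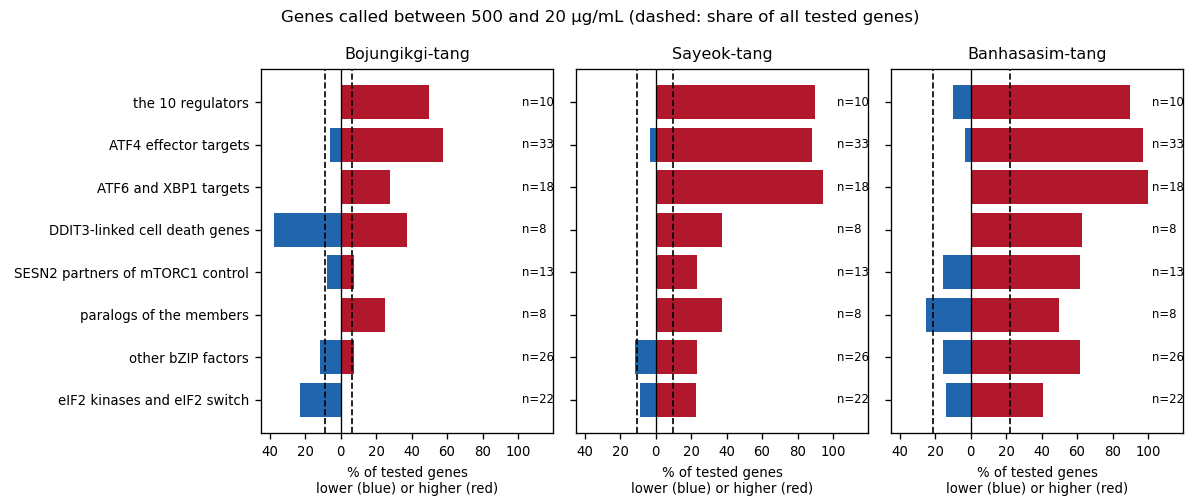
Share of tested genes called as higher (red, to the right) or lower (blue, to the left) from 20 to 500 µg/mL in the 10 regulators and in 7 gene lists, 1 panel per formula. Dashed lines give the share of all tested genes, 22.3% higher under Banhasasim-tang, 9.89% under Sayeok-tang and 6.64% under Bojungikgi-tang. The ATF4 targets reach past these lines in all 3 panels.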

How the data were processed

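RNA was sequenced from SW1783 cells, and groups came from the sample labels. The values deposited by the authors are expected counts for each gene. Tools named in the submitters' processing notes were RSEM 1.3.3, STAR 2.7.3a, Trim Galore 0.6.5 and FastQC 0.11.9, with build hg38 (GRCh38). The sources used here do not give an annotation release. Values were rounded, since 9.36 to 11.1% in each library were not whole. An expected count splits reads between similar genes by a model. Depth was 28.01 to 59.9 M counts. Symbols were found for 56558 of 60675 identifiers, and 0 entries named no gene. Replicates differed by more than sampling noise, with chi-square values per gene of 2.43 to 33.2.

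Filtering with filterByExpr left 19632 genes. Libraries were scaled by TMM, and a model of 13 group means over 30 libraries was fitted and tested with edgeR's quasi-likelihood test (edgeR 4.0.16, R 4.3.3), and p-values were adjusted by Benjamini-Hochberg within each comparison, at a threshold of 0.05. The script was tested on simulated data. The 21 planned comparisons set each dose against vehicle, doses within a formula, formulas at 500 µg/mL and dose effects between formulas. Another 4 were added after the data were seen. CPM and log2 CPM (prior count 2) were computed from the deposited counts. A standard error is the log2 change divided by the root of F. Yijung-tang was described against 1.5-fold. Alternatives were other scaling, DESeq2 1.42.0, no filter, the compared groups alone, a replicate block and leaving out each library.

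The members and lists were chosen with earlier results of these data known. All 10 members were named. From each list up to 6 called genes with the smallest p were named per comparison. For ATF4, DDIT3, TRIB3 and CEBPB the 5 other genes with the highest Pearson correlation over treated libraries were named.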

Additional observations from a re-analysis of the deposited data

Results flagged for a closer look

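The dose effect, the log2 change from 20 to 500 µg/mL, was tested between formulas, and 25 differences between formulas passed an adjusted p of 0.05 in edgeR's quasi-likelihood test. Between Sayeok-tang and Bojungikgi-tang it was larger under the former by 0.68 for ATF4, 0.69 for ATF3, 1.01 for DDIT3, 0.40 for CEBPG, 1.21 for TRIB3, 0.87 for NUPR1, 0.41 for PPP1R15A and 0.78 for SESN2. Both formulas belong to 1 label set, and 4.49% of all genes differed this way. Between Banhasasim-tang and Bojungikgi-tang it was larger under the former by 1.28 for ATF4, 3.66 for ATF3, 2.90 for DDIT3, 0.78 for CEBPB, 1.27 for CEBPG, 2.96 for TRIB3, 2.04 for NUPR1, 1.96 for PPP1R15A and 1.72 for SESN2. Between Banhasasim-tang and Sayeok-tang it was larger under the former by 0.60 for ATF4, 2.97 for ATF3, 1.90 for DDIT3, 0.87 for CEBPG, 1.76 for TRIB3, 1.17 for NUPR1, 1.55 for PPP1R15A and 0.94 for SESN2. ATF4 had a smaller difference than ATF3, DDIT3 and TRIB3 in each of the last 2 comparisons, and the genes were not tested against each other. Groups held at most 3 libraries, so a single library far from the others was not tested for. CEBPB under Bojungikgi-tang at 100 µg/mL, at 57.1, 80.7 and 53.7 CPM, is an example of libraries of 1 group that stood apart.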

How the results depend on the processing

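Outside the settings that leave out a library, 1460 log2 changes of single regulators kept their side of the threshold and, where called, their direction. Another 32 came to pass, 7 ceased to pass and 1 reversed. A change of direction in a difference called in neither fit was counted as kept. With a library left out, 1470 kept both, 8 came to pass and 52 ceased to. The reversal was ATF5 between Banhasasim-tang and Bojungikgi-tang at 500 µg/mL, 0.00 as reported and -0.16 with library size scaling (adjusted p = 0.0318). Library size scaling moved the median of all genes by up to -0.15 on the log2 scale. The count of called regulators changed from 0 to 1 (Bojungikgi-tang) and 0 to 2 (Sayeok-tang) from 20 to 100 µg/mL without the filter on low counts, and ran from 3 to 5 for the difference between Banhasasim-tang dose steps with a library left out. Smaller changes of that count with a library left out were also seen. It ran from 5 to 7 under Bojungikgi-tang from 20 to 500 µg/mL and from 4 to 6 from 100 to 500 µg/mL. For 20 µg/mL of Sayeok-tang against vehicle it ran from 4 to 6. Counts of all genes called moved more. Fitting the compared groups alone gave 2758 in place of 5139 for 20 µg/mL of Bojungikgi-tang against vehicle and 5603 in place of 3589 for Banhasasim-tang. From 20 to 500 µg/mL it gave 1336 in place of 3051 for Bojungikgi-tang, from 20 to 100 µg/mL 6 in place of 307, and from 100 to 500 µg/mL 1722 in place of 900. It gave 2381 in place of 1296 for Banhasasim-tang from 20 to 100 µg/mL, as did library size scaling, and 478 in place of 882 for the dose effect of Sayeok-tang against Bojungikgi-tang. From 20 to 100 µg/mL no filter gave 757 for Bojungikgi-tang and 174 in place of 6 for Sayeok-tang, and DESeq2 gave 518 and 30. With a library left out, genes called under Banhasasim-tang from 20 to 100 µg/mL were 656 to 691 and at 100 and 20 µg/mL against vehicle 3288 to 4966 (5509 as reported) and 1183 to 3180. They were 300 to 709 in place of 888 for the difference between its steps. For Bojungikgi-tang they were 93 to 865 from 20 to 100 µg/mL and 526 to 803 from 100 to 500 µg/mL, and for Sayeok-tang 1 to 12 from 20 to 100 µg/mL. Library size scaling also moved the share of called genes that were higher, from 51.2 to 39.3% (Banhasasim-tang), 42.7 to 69.5% (Bojungikgi-tang) and 48.2 to 62.8% (Sayeok-tang) from 20 to 500 µg/mL, and from 55.1 to 15.2% for Banhasasim-tang from 20 to 100 µg/mL. It moved it from 50.7 to 34.1%, 51.2 to 17% and 48.6 to 26.4% for Banhasasim-tang at 500, 100 and 20 µg/mL against vehicle, and from 33.1 to 69.8% for the difference between its steps. In the lists 0 genes were called with the other sign under either scaling. The cause of these changes was not tested. Taken over all label sets, replicate numbers did not pair libraries (median correlation 0.01 over 111 pairs, 19 over 0.1). Of 27 libraries 11 were closest to their own number. Single pairs ran from -0.37 to 0.44, and pairing within 1 label set was not checked, so it may exist there. With the replicate block, ATF4 (0.16, adjusted p = 0.0342) and CEBPB (0.42, adjusted p = 0.0476) passed from 20 to 500 µg/mL under Bojungikgi-tang, and no other regulator changed its call. What depth limits in single regulators was not measured.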

Other observations

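Levels of 3 regulators in groups of different formulas and doses are given side by side, and since the doses differ no comparison was made. TRIB3 stood at 60.6, 69.4 and 64.6 CPM under Sayeok-tang at 500 µg/mL, 102 and 106 under Banhasasim-tang at 100 µg/mL and 52.2 under Yijung-tang at 500 µg/mL. DDIT3 stood at 59.5, 62 and 57.5, at 71.7 and 71.1, and at 52.4 CPM in the same order. CEBPB stood at 81.5, 88.2 and 73.5, at 57 and 66.2, and at 75.5 CPM.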
